A study of Mus musculus with 4 samples.

Results

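ABC transporters are membrane proteins that spend ATP to move lipids, peptides, metals and drugs across membranes. Genes of this superfamily were followed in mouse Ly6C-high monocytes exposed to all-trans retinoic acid, a vitamin A derivative that acts through nuclear receptors. Members were the probe sets with exactly 1 gene symbol in the platform annotation whose symbol starts with Abc, a subfamily letter from a to g and a number. The rule found 48 of the 41345 probe sets on the array, 1 for each of 48 genes. All 48 were tested, and no level filter was applied.

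The monocytes were enriched and sorted from bone marrow pooled from 3 mice. All 4 samples grew with the cytokines GM-CSF and interleukin 4 (both 20 ng per ml), which drive monocytes toward dendritic cells. From the start, 2 samples also had retinoic acid at 100 nM and 2 had the solvent DMSO, and RNA was taken after 24 h, on day 1, for whole-transcript arrays. The labels give neither the strain nor the age of the mice. Nor do they say whether replicates came from separate cultures or pools, so a p-value here reflects only how far these samples spread, and that spread may be technical.

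In macrophages, Abca1 and Abcg1 carry cholesterol out of the cell, Abca1 to lipid-poor apolipoprotein A-I and Abcg1 to HDL particles. The LXR receptors, which pair with RXR and sense oxysterols, switch both genes on. Members of subfamilies B, C and G export drugs and conjugated metabolites, those of D import fatty acids into peroxisomes or move vitamin B12 out of lysosomes, and those of E and F carry the ATP-binding domains without a membrane part and work on ribosomes.

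With retinoic acid, 4 ABC genes rose and 3 fell. Abca1, Abcc3 and Abcd2 rose by 2.50-fold to 3.14-fold, and Abcb1b, Abcg1 and Abca2 were 1.60-fold to 1.82-fold lower. Abcg3 rose by 4.40-fold with 1 weak DMSO array set to the dim level defined below. The other 41 genes did not pass the test, which was limma on log2 intensities with a Benjamini-Hochberg adjusted p under 0.05 over all 39720 probe sets tested. Over all of these probe sets, 0.904% were called higher, 1.19% lower and 2.09% in either direction. With 1 probe set per gene, 3.07% of 22180 genes were called, 1.28% higher and 1.79% lower, against 14.6% of the 48 ABC genes (8.33% higher, 6.25% lower). The median log2 difference was 0.06 over the ABC genes and 0.01 over all genes. The calls depend on 1625 probe sets without a symbol, each constant over the 4 arrays, which were left out: with them kept, limma called 0 ABC genes and 0 probe sets in all, with 16 ABC genes at an unadjusted p under 0.05. Leaving out 1 array also ended the calls, 0 remaining without retinoic acid replicate 1, retinoic acid replicate 2 or DMSO replicate 1, and 1 without DMSO replicate 2, while no sign of the 7 changed.

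**Figure D1:**
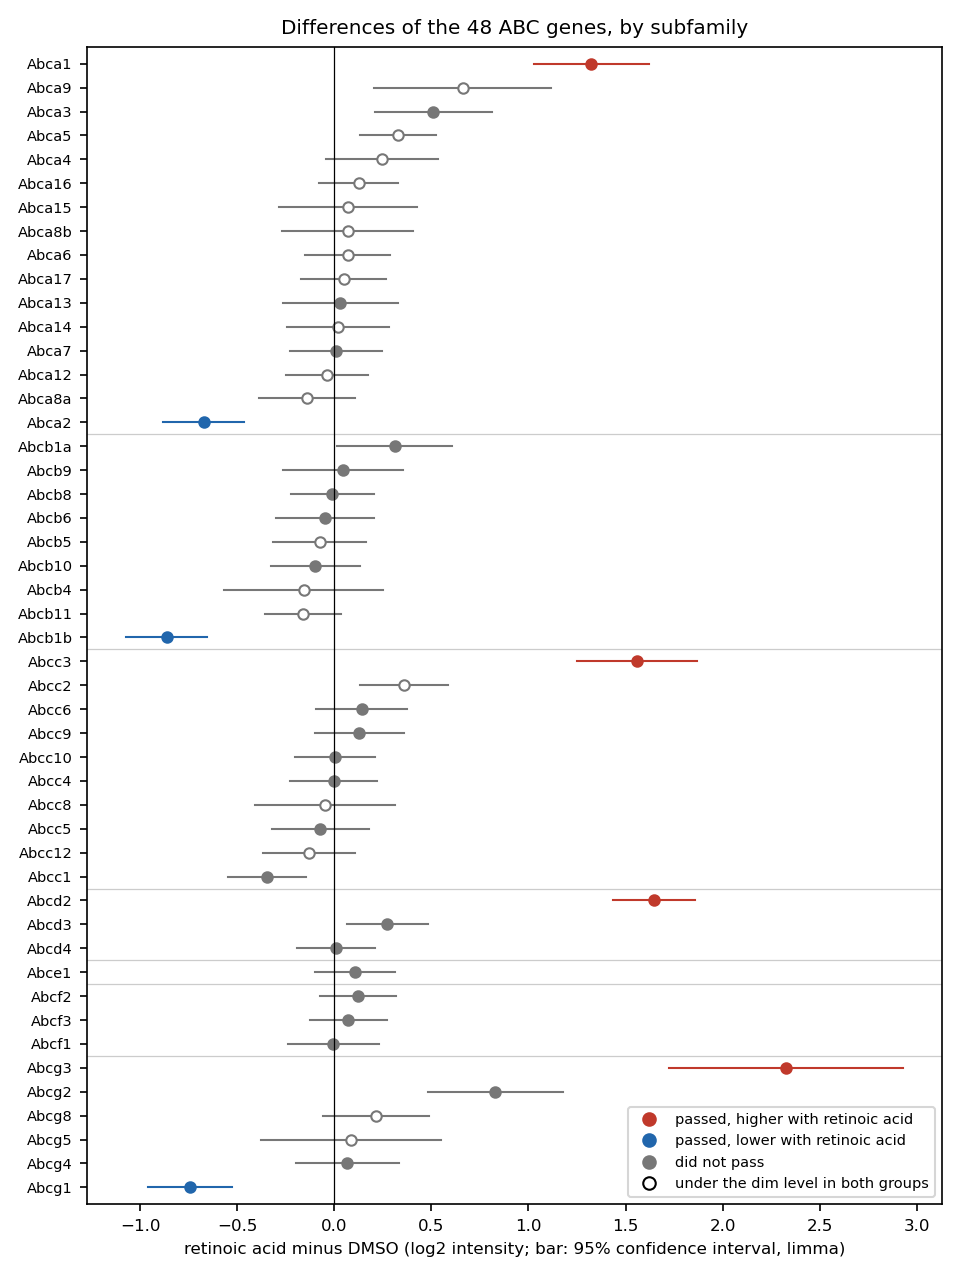
Difference between retinoic acid and DMSO (log2 intensity) of each of the 48 ABC genes, grouped by subfamily, with limma's 95% confidence interval; colour marks the call at an adjusted p under 0.05 and open circles mark genes under the dim level in both groups. The 4 genes that rose lie at 1.32 or above, the 3 that fell lie at -0.67 or below, and most others lie close to 0.

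Levels are log2 intensities, and because each probe set binds with its own strength, levels of different genes are not compared. A dim level of 6.35 served as a guide to weak signals. It is the 95th percentile of the mean level of 1400 probe sets for olfactory and vomeronasal receptors, and was set with the data in view. By this guide 19 ABC genes were dim in both groups, and none of them passed the test (differences from -0.16 to 0.66). The other 29 were above it in 1 or both groups, Abcg3 and Abcc9 with retinoic acid only. The arrays of a treatment did not overlap those of the other for 28 ABC genes, 58.3%, and for 48% of all genes. Counted over all 48 ABC genes, 20 lay apart and higher with retinoic acid and 8 lay apart and lower. Over all 22180 genes, 5551 (25%) lay apart and higher and 5105 (23%) lay apart and lower.

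The promoters of 3 members are shown because they belong to genes the results turn on: Abca1, which rose, and the neighbouring twins Abcb1b, which fell, and Abcb1a, which did not pass. RefSeq promoters (GRCm38.p6) were found for 38 of the 48 members. The 10 members without a promoter include Abcg1, Abcd2 and Abcc3, which passed the test. Each run below is the 250 bases before the annotated start, 5′ to 3′ on the gene's strand. In Abca1 (chr4:53159896-53160145, minus strand), capitals mark the window closest to a DR4, which is a pair of half-sites AGGTCA or AGTTCA spaced by 4 bases, the form that LXR with RXR prefers. In Abcb1a (chr5:8566841-8567090, plus strand), capitals mark an exact half-site. Abcb1b (chr5:8797897-8798146, plus strand) holds no exact half-site on either strand and is all in lower case.
Abca1: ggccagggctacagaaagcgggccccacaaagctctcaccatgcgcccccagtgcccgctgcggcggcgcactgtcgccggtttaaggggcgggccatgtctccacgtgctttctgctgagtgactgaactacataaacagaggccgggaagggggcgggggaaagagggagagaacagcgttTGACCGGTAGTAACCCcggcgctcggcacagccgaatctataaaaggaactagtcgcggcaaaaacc
Abcb1a: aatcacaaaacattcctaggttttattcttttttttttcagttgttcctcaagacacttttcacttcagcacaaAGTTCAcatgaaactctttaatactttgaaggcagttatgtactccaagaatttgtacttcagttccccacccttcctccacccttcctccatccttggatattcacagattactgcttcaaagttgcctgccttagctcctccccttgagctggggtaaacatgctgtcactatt
Abcb1b: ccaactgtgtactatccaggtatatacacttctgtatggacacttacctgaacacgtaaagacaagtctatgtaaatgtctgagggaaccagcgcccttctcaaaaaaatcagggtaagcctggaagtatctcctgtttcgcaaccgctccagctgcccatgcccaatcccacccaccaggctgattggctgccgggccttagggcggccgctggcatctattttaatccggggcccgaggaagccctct

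The capitals in Abca1 span positions -67 to -52 from the start. Read on the other strand they are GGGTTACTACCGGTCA, which differs from the nearest DR4 at 3 of its half-site letters. The same window of Abca1 holds 1 exact half-site, at -125 to -120. A DR4 with up to 3 mismatches on either strand is common, present in 37.52% of 32851 promoter windows of this length and in 12 of 45 member windows. Such counts cannot tell whether the stretch in Abca1 binds a receptor, which was not tested. At least 1 exact half-site, AGGTCA or AGTTCA on either strand, stood in 24.16% of all windows and in 15 of the 45. No member window held an exact direct repeat spaced by 1, 2, 4 or 5 bases, the spacings nuclear receptor pairs with RXR use, and these stood in 0.07%, 0.04%, 0.02% and 0.03% of all windows. The printed windows also differed in base composition. Abca1 had 61.6% G or C and 20 CG pairs, Abcb1b 52.8% and 9, and Abcb1a 40.4% and 0. Medians over all windows were 52.4% and 6, so Abcb1b lay close to the median in G or C. The windows of Abca2 and Abcg3 held no exact half-site.

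Of the cholesterol exporters, Abca1 rose and Abcg1 fell. Abca1 (probe set 17425301) stood at 9.06 and 8.93 with retinoic acid and at 7.56 and 7.79 with DMSO (log2 intensity, replicates 1 and 2). Both retinoic acid arrays lay above both DMSO arrays, by more than either pair differed within itself. The log2 difference was 1.32 ± 0.11 (SE, n = 2 per group), a 2.50-fold increase (limma adjusted p = 0.0156).

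Abcg1 (probe set 17335770) stood at 9.60 and 9.71 with retinoic acid and at 10.41 and 10.40 with DMSO. Both retinoic acid arrays lay below both DMSO arrays. Its log2 difference was -0.74 ± 0.08 (SE, n = 2 per group), a level 1.68-fold lower (limma adjusted p = 0.0279). The 95% confidence intervals of the differences, 1.03 to 1.62 for Abca1 and -0.96 to -0.53 for Abcg1, lie on opposite sides of 0. The close relative Abcg4, a sterol exporter best known from brain, was near the dim level and differed by 0.07 (interval -0.20 to 0.33). Abcg5 and Abcg8, neighbours whose products form the gut and liver sterol pump, were dim in both groups.

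The lipid transporter Abca2, which resides in endosomes and lysosomes, fell. Abca2 (probe set 17368009) stood at 7.94 and 8.01 with retinoic acid and at 8.67 and 8.63 with DMSO. The groups did not overlap, and within each the arrays differed little. The difference was -0.67 ± 0.08 (SE, n = 2 per group), or 1.60-fold lower (limma adjusted p = 0.0327). Abca3, which loads phospholipid into lamellar bodies and lies next to Abca17 on chromosome 17, stood at 9.30 and 9.29 with retinoic acid and at 8.65 and 8.92 with DMSO. Its groups did not overlap either, but the DMSO arrays were further apart, and the difference of 0.51 ± 0.12 did not pass (adjusted p = 0.149, limma). Abca7, a lipid transporter of phagocytic cells, showed overlapping groups and a difference of 0.01 (interval -0.23 to 0.25).

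The remaining A subfamily genes were mostly dim. Abca13 was above the dim level and differed by 0.03 (interval -0.27 to 0.33). The cluster Abca8b, Abca8a, Abca9, Abca6 and Abca5 on chromosome 11 was dim in all members and both groups. Within that cluster Abca9 stood at 5.84 and 6.32 with retinoic acid and at 5.44 and 5.40 with DMSO, a difference of 0.66 ± 0.17 that did not pass (limma adjusted p = 0.202). Abca5 differed by 0.33 ± 0.08 (adjusted p = 0.153), and the other 3 by -0.14 to 0.07. The chromosome 7 cluster Abca14, Abca15 and Abca16 was dim too, as were Abca12, which carries lipids in skin, and Abca4, which clears retinal derivatives from photoreceptors. Abca4 differed by 0.25 (interval -0.04 to 0.53).

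The peroxisomal transporter gene Abcd2, which imports very long and polyunsaturated fatty acids, had the smallest adjusted p of the 48. Abcd2 (probe set 17320652) stood at 11.63 and 11.72 with retinoic acid and at 10.01 and 10.05 with DMSO. The gap between the groups was many times the gap between replicates. The log2 difference was 1.65 ± 0.08 (SE, n = 2 per group), a 3.14-fold increase (limma adjusted p = 0.00488). Abcd3, the abundant peroxisomal transporter of branched and long chains, stood at 9.58 and 9.59 against 9.27 and 9.35, with no overlap and a difference of 0.27 ± 0.08 that did not pass (adjusted p = 0.246, limma). Abcd4, which acts with lysosomal vitamin B12, differed by 0.01 (interval -0.19 to 0.21).

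Among exporters of conjugated metabolites, Abcc3 rose. It encodes MRP3, a pump for glucuronides and bile acids. Abcc3 (probe set 17267846) stood at 7.96 and 8.23 with retinoic acid and at 6.50 and 6.58 with DMSO. The DMSO arrays lay just above the dim level and both retinoic acid arrays well above it, so the fold is against a level near background. The log2 difference was 1.56 ± 0.12 (SE, n = 2 per group), or 2.94-fold (limma adjusted p = 0.0121).

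The other C subfamily genes did not pass. Abcc1, the exporter of leukotriene C4 and glutathione conjugates, stood at 10.72 on both retinoic acid arrays and at 11.04 and 11.09 with DMSO. Its groups did not overlap, and the difference was -0.35 ± 0.08 (adjusted p = 0.140, limma). Abcc4, which exports cyclic nucleotides and prostaglandins, differed by 0.00 (interval -0.23 to 0.22), and Abcc5, another cyclic nucleotide exporter, by -0.07 (interval -0.32 to 0.18). Abcc10, Abcc6 and Abcc9, the last a subunit of potassium channels, differed by 0.00 to 0.14. Abcc2, Abcc8 and Abcc12 were dim in both groups, and of these Abcc2 differed most, by 0.36 ± 0.09 (adjusted p = 0.171).

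In the multidrug transporter cluster on chromosome 5, Abcb1b fell. Abcb1b and Abcb1a encode the mouse P-glycoproteins, and their neighbour Abcb4 encodes a phosphatidylcholine floppase. Abcb1b (probe set 17434555) stood at 8.28 and 8.25 with retinoic acid and at 9.17 and 9.08 with DMSO. Both retinoic acid arrays were lower than both DMSO arrays, with replicates close together. The log2 difference was -0.86 ± 0.08 (SE, n = 2 per group), or 1.82-fold lower (limma adjusted p = 0.0185).

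Abcb1a stood at 6.75 and 6.91 with retinoic acid and at 6.62 and 6.41 with DMSO. Its retinoic acid arrays were the higher ones, and its difference was 0.31 ± 0.11, which did not pass (limma adjusted p = 0.350). Its interval, 0.01 to 0.61, does not overlap that of Abcb1b, -1.07 to -0.65; the difference between the 2 genes was not tested. The genes are close in sequence and their probes may share targets, so how the signal divides between them is uncertain. Abcb4 was dim, with overlapping groups.

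The other B subfamily genes did not pass. Abcb6, a porphyrin transporter, differed by -0.05 (interval -0.30 to 0.21). Abcb8 and Abcb10, which sit in the inner mitochondrial membrane, differed by -0.01 (interval -0.23 to 0.20) and -0.10 (interval -0.33 to 0.13). Abcb9, a lysosomal peptide transporter, differed by 0.05 (interval -0.26 to 0.36). Abcb5 and the bile salt pump gene Abcb11 were dim in both groups.

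Of the G subfamily, Abcg3, a rodent gene related to Abcg2, rose. Abcg3 (probe set 17450414) stood at 8.62 and 8.66 with retinoic acid and at 5.98 and 6.65 with DMSO. The retinoic acid arrays were close together and far above both DMSO arrays, which had a mean of 6.31 ± 0.48 (SD, n = 2), under the dim level. The measured log2 difference was 2.33 ± 0.23 (SE, n = 2 per group; limma adjusted p = 0.0212). Of the 2 DMSO arrays, replicate 1 was under the dim level. With that array set to the dim level, the change was 4.40-fold (log2 difference 2.14). This value is an estimate and not a lower limit. The confidence interval of the measured log2 difference was 1.72 to 2.93. Without DMSO replicate 1 the log2 difference was 1.99.

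Abcg2, the exporter of urate, haem precursors and many drugs, stood at 7.51 and 7.17 with retinoic acid and at 6.48 and 6.53 with DMSO. Its groups did not overlap, the DMSO arrays lay near the dim level, and the difference of 0.83 ± 0.13 did not pass (limma adjusted p = 0.0702). It passed among probe sets with 1 symbol and among those brighter than the median.

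**Figure D2:**
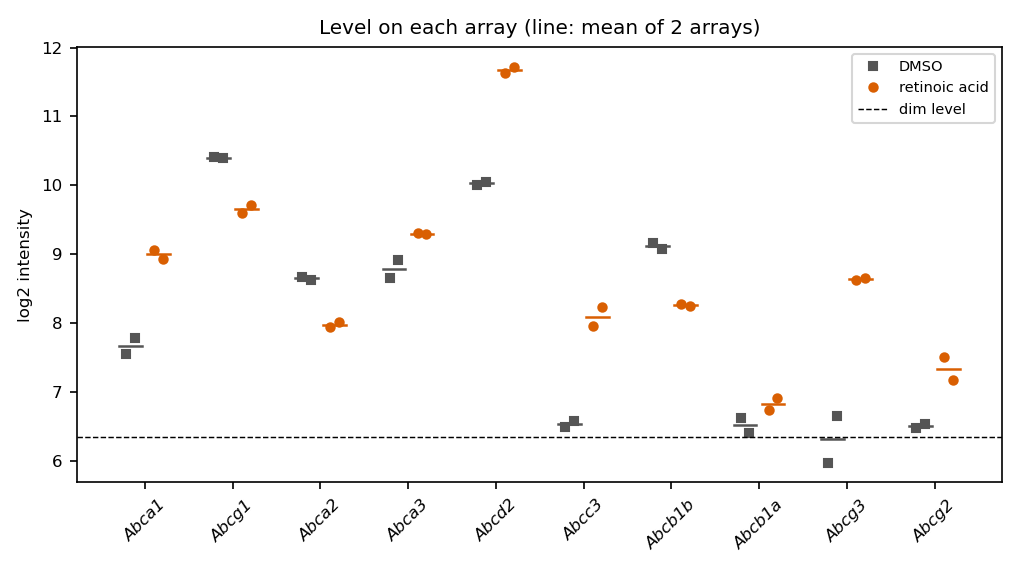
Level of 10 ABC genes on each array (log2 intensity); squares are DMSO arrays, circles retinoic acid arrays, short lines the mean of the 2 arrays and the dashed line the dim level of 6.35. For Abca1, Abcd2, Abcc3 and Abcg3 both circles lie above both squares, for Abcg1, Abca2 and Abcb1b below them; levels of different genes are not comparable.

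None of the ribosome-associated members passed. Abce1, which splits ribosomes for recycling, stood at 12.77 and 12.71 with retinoic acid and at 12.65 and 12.61 with DMSO. Its groups did not overlap but lay close together, with a difference of 0.11 (interval -0.10 to 0.31). Abcf1, Abcf2 and Abcf3, which act in translation and its control, differed by 0.00 (interval -0.24 to 0.23), 0.12 (interval -0.07 to 0.32) and 0.07 (interval -0.13 to 0.27). All 4 were above the dim level. Of 14 measured genes of initiation, surveillance and recycling that work beside them, 0 passed by limma, with differences from -0.18 to 0.36.

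Partner genes of the transporters were then read, from lists chosen with earlier results of these data known. Of 28 measured genes of cholesterol efflux and its control, 2 rose, 1 fell and 25 did not pass (median log2 difference 0.00). Smpdl3a, a sterol-responsive phosphodiesterase, rose by 3.09 ± 0.16 (limma adjusted p = 0.00548; its dimmer probe set by 1.16 ± 0.14, adjusted p = 0.0356), and Apoc2, an apolipoprotein, by 0.81 ± 0.08 (adjusted p = 0.0212). Rxra, the partner receptor, stood at 7.60 and 7.83 with retinoic acid and at 8.99 and 9.32 with DMSO and fell by 1.44 on the log2 scale (limma adjusted p = 0.0242).

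Other genes known as LXR targets did not pass. Nr1h3, which encodes LXRα, differed by -0.19 (interval -0.40 to 0.02), and Nr1h2, which encodes LXRβ, was not analysed here. Mylip, which degrades the LDL receptor, stood at 9.08 and 9.06 against 8.57 and 8.73 with DMSO, a difference of 0.42 ± 0.09 (limma adjusted p = 0.139). Pltp, a phospholipid transfer protein, differed by 1.05 ± 0.22 (adjusted p = 0.125), with DMSO arrays at 7.74 and 8.38. Apoe differed by 0.46 ± 0.14, Lpcat3 by 0.12 ± 0.08 and Srebf1 by -0.06 ± 0.09. The PPAR receptor genes Pparg, Ppard and Ppara differed by -0.26, -0.02 and -0.08 and did not pass.

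Of 18 measured peroxisomal genes, 1 rose, 1 fell and 16 did not pass (median 0.02). Phyh, which starts the breakdown of branched phytanic acid, stood at 9.36 and 9.33 with retinoic acid and at 7.34 and 7.45 with DMSO. Like Abcd2 its arrays formed tight, separate pairs, and it rose by 1.95 ± 0.08 (limma adjusted p = 0.00431). Its dimmer probe set rose as well, by 1.10 ± 0.09 (adjusted p = 0.0126). Acox3, a peroxisomal oxidase of branched chains, stood at 8.60 and 8.68 against 9.29 and 9.32 and fell by 0.66 on the log2 scale (limma adjusted p = 0.0335). Pex19, the chaperone that delivers the D subfamily to the peroxisome, differed by -0.23 ± 0.09 and did not pass.

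Of 21 measured genes on the glutathione and leukotriene list, 2 rose, 2 fell and 17 did not pass (median 0.14). The list also holds the prostaglandin genes Hpgds, Ptgs2 and Ptges and the phosphodiesterase gene Pde4b. The glutathione reductase Gsr rose by 0.90 ± 0.08 and the membrane transferase Mgst1 by 1.04 ± 0.14 (limma adjusted p = 0.0147 and 0.0424). The cystine importer Slc7a11 fell by 1.08 and Alox5ap, which feeds arachidonic acid to 5-lipoxygenase, fell by 0.80 on the log2 scale (limma adjusted p = 0.0237 and 0.0266). Their dimmer probe sets differed by -0.27 ± 0.11 and -0.43 ± 0.08 and did not pass. Ltc4s, which makes the leukotriene that Abcc1 exports, differed by 0.70 ± 0.13 (limma adjusted p = 0.104).

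Of 16 measured genes of haem and mitochondrial iron, 1 rose, 0 fell and 15 did not pass by limma (median 0.02). Alas1, the first enzyme of haem synthesis, rose by 0.87 ± 0.08 (limma adjusted p = 0.0179), from 11.13 and 11.09 to 12.01 and 11.94. Alad, the next enzyme, differed by 0.62 ± 0.09 (adjusted p = 0.0579), and Tspo, an outer mitochondrial membrane protein, by -0.61 ± 0.09 (adjusted p = 0.0525). The antigen peptide transporter genes Tap1 and Tap2 are ABC genes whose symbols fall outside the rule. Tap1 stood at 9.74 and 9.84 with retinoic acid and at 10.28 and 10.15 with DMSO, a difference of -0.42 ± 0.09 that did not pass (limma adjusted p = 0.137), and Tap2 differed by -0.22 ± 0.12.

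**Figure D3:**
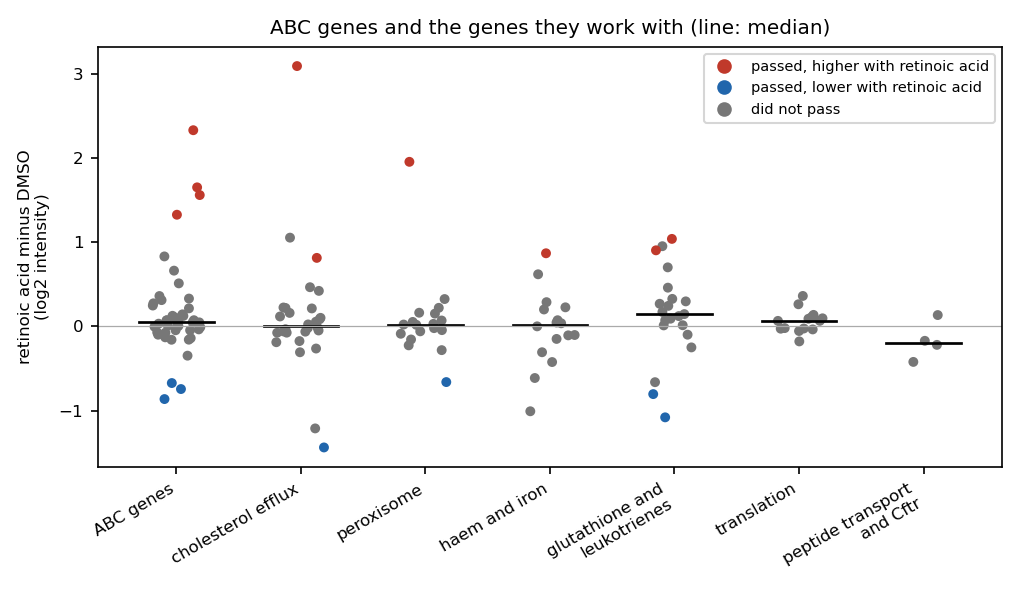
Differences (log2 intensity, retinoic acid minus DMSO) of the 48 ABC genes and of the genes on each partner list, 1 point per gene, with the median as a line; red and blue mark genes that passed. Medians lie between -0.20 and 0.14, and the 2 lists without a passing gene are translation and peptide transport with Cftr.

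Cell type markers were checked on all 4 arrays. Of 9 measured monocyte markers 8 were above the dim level and none passed the test (summed intensity 25919 to 27099 with retinoic acid, 22730 to 24193 with DMSO). Csf1r stood at 11.86 to 11.87 on every array, while Itgam, Fcgr1 and Ccr2 differed by 0.66 ± 0.12, 0.60 ± 0.12 and -0.34 ± 0.08 with groups that did not overlap (limma adjusted p = 0.0893, 0.116 and 0.164). Of 9 dendritic cell markers 3 fell, H2-Ab1, Zbtb46 and Ccr7 (summed intensity 9200 to 9304 with retinoic acid, 16951 to 17520 with DMSO). Cd209a, counted on its probe set with the higher mean, differed by 0.05 ± 0.09, but its other probe set, left out of that count and sum, stood at 7.26 and 7.22 with retinoic acid and at 11.27 and 11.44 with DMSO, 17.4-fold lower (limma adjusted p = 0.00172). Neutrophil and granulocyte precursor markers were also present, 9 of 10 above the dim level, with sums of 15617 to 16245 and 17045 to 17402, Mpo at 11.52 to 11.70 and Ly6g at 6.18 to 6.66; Retnlg, dim in both groups, rose and Cxcr2 fell. Among 7 B cell markers 5 were dim, and Cd79b rose (sums 511 to 514 and 412 to 423). None of the 4 erythroid, 7 T and NK, 5 megakaryocyte, 6 mast cell, 5 progenitor or 6 stromal markers passed by limma. The part of these shifts in the ABC differences was not tested. In bulk RNA, fewer cells of a type and less RNA per cell cannot be told apart.

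The calls of the ABC genes varied with the setting. The same 7 genes passed under quantile normalization, with 16 added before log2, among probe sets with 1 symbol, among brighter probe sets and with limma's trend and robust options. Abcc1 passed as lower under 2 of these settings, the filter to 1 symbol and the trend and robust options, and Abca3 passed as higher under the former. With replicate number added as a block, only Abcc3 and Abcd2 passed.

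**Figure D4:**
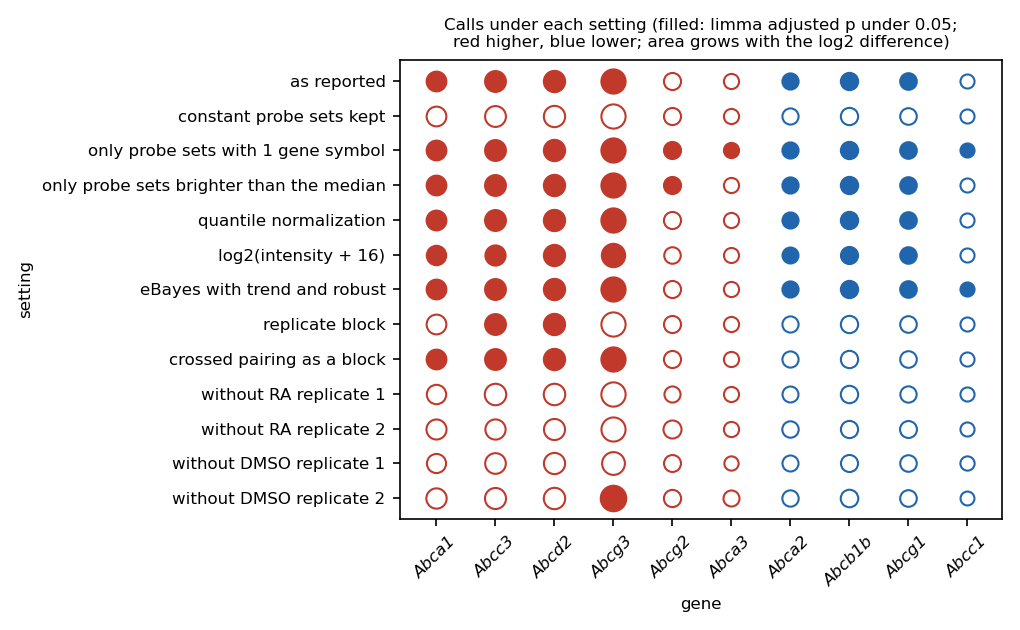
Calls of 10 ABC genes (columns) under each setting (rows); filled circles passed at a limma adjusted p under 0.05, red is higher and blue lower with retinoic acid, and the area grows with the log2 difference. Colours do not change down any column. Fill is lost with constant probe sets kept and in nearly all fits without 1 array. Under both block settings it is also lost for the 3 genes that fell, and under the replicate block for Abca1 and Abcg3.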

How the data were processed

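Values are the authors' deposited intensities, 1 per probe set and array on a linear scale, made with Affymetrix Expression Console and RMA per the submitters' processing notes. RMA corrects background, equalises distributions and summarises probes, which pulls dim genes toward each other. Versions and genome build are not given in the sources used here. Per the labels' protocols, 250 ng of RNA was labelled with the WT PLUS kit. Intensities were transformed to log2 without further normalization. The 1625 probe sets with the same value on all 4 arrays (1624 at 4.78, none with a symbol) were left out. The reason was that they lowered limma's prior degrees of freedom from 2.76 to 0.90. When this was chosen, their effect on that prior was known from an earlier analysis of these data. The treatments were set against each other with limma 3.58.1 (R 4.3.3, lmFit, eBayes, two-sided, no covariates). The fit was also run on simulated data. Their variances were drawn from limma's own fitted prior, so they cannot show how well that prior suits these arrays. With 2 arrays a group, exact permutation tests reach no p below 0.333. The number of arrays limits the precision; array medians were 80.0 to 81.8. Replicates correlated at 0.9931 to 0.9943 within and 0.9841 to 0.9879 between treatments, across probe sets. Genes came from the platform annotation; of several probe sets of a gene, the brightest stood for it. Abca1, Abcg1, members past the threshold and members differing by at least 0.5 are given in full. Partner genes past the threshold are all named. Values of other members and partners are a selection. Ch25h, Cpox and Alox5, left out above, differed by -1.21, -1.01 and 0.95 on the brightest probe set of each and did not pass. Members and lists were chosen with earlier results of these data known. Motifs were searched in RefSeq promoters of GRCm38.p6.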

Additional observations from a re-analysis of the deposited data

How the results depend on the processing

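Every setting run kept the sign of the 7 called ABC genes. With constant probe sets kept, 0 ABC genes passed in either direction, and 0 genes of every partner list. The labels do not say whether the replicate numbers pair the samples. Replicate differences of the 2 treatments correlated at -0.25 over probe sets, which cannot decide the pairing with 2 arrays a group. A replicate block left 2 ABC genes higher (Abcc3 and Abcd2) and 0 lower. It left 1 sterol gene higher, 0 glutathione and leukotriene genes in either direction, 0 haem genes higher and 0 peroxisomal genes lower. Crossed pairing as a block, chosen after seeing the data, gave 4 ABC genes higher and 0 lower, 1 glutathione gene each way, 1 sterol gene higher and 0 lower, and 0 peroxisomal genes lower. Among probe sets with 1 symbol, 5 glutathione genes, 4 sterol genes and 2 haem genes were higher, and 2 haem genes and 1 ABC gene outside the rule were lower. The haem list had 2 genes higher and 1 lower among brighter probe sets, with 16 added and with trend and robust options, and 1 lower after quantile normalization. Over all probe sets, 831 were called, and 0 to 1636 over the planned settings, 25 to 55 without 1 array. Without 1 array, 0 to 1 ABC genes were higher and 0 lower, 0 to 1 sterol genes were higher and 0 lower, and 0 genes of the other lists passed in either direction, fits in which the lone sample of a group is assumed to vary like the other group. The sign of 20 ABC genes that did not pass turned in such fits: Abca12 (-0.084 to 0.011), Abca13 (-0.10 to 0.16), Abca14 (-0.080 to 0.12), Abca15 (-0.10 to 0.25), Abca17 (-0.0084 to 0.10), Abca7 (-0.065 to 0.079), Abca8b (-0.088 to 0.23), Abcb4 (-0.33 to 0.010), Abcb5 (-0.15 to 0.0039), Abcb6 (-0.12 to 0.022), Abcb8 (-0.055 to 0.032), Abcb9 (-0.072 to 0.16), Abcc10 (-0.034 to 0.040), Abcc4 (-0.067 to 0.062), Abcc5 (-0.15 to 0.0053), Abcc8 (-0.18 to 0.085), Abcd4 (-0.021 to 0.037), Abcf1 (-0.074 to 0.064), Abcg4 (-0.036 to 0.17) and Abcg5 (-0.15 to 0.32). Which array or gene property sets these shifts was not tested. With 2 arrays a group, small differences could not be resolved, neither of dim genes nor of genes above the dim level such as Abcf1 and Abcc4.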
